A study of Mus musculus with 502 samples.

Results

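The MYC locus on the long arm of human chromosome 8 was examined here as the stretch from 126.5 to 129.8 Mb (hg38), which holds MYC, the adjoining non-coding gene PVT1 and the gene-poor sequence on both sides. Members were the silencers whose midpoint fell in these 3.3 Mb: 396 of the 397136 usable silencers in the 3 deposited lists, with 130 of 125249 in 293T (0.104%), 0.0932% of 134159 in K562 and 0.102% of 137728 in LNCap. The 293T members split into 63 centromeric and 67 telomeric of MYC, those of K562 into 60 and 65, and those of LNCap into 59 and 82. The sides are unequal, from -1240 kb to MYC and from MYC to 2060 kb. By these counts the centromeric side was the denser per Mb in each list, with no interval computed. The telomeric side includes a stretch of 379 kb without a silencer in any list, which lowers its density. Members were chosen by position alone.

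Ss-STARR-seq reads silencer activity on plasmids: genomic DNA is broken into short pieces, cloned into a reporter vector and transfected, and the RNA of each piece is compared with the plasmid DNA put in. The 3 groups are human cell lines without further treatment in the labels: 293T, a line of embryonic kidney origin that carries the SV40 large T antigen; K562, an erythroid-like line from a chronic myeloid leukaemia; and LNCap, an androgen-responsive prostate cancer line from a metastasis. The labels list 461 output RNA libraries from the 3 lines, 180 of them from K562, and 41 input DNA libraries (1 of 293T and 40 of LNCap). Only 1 list per line was analysed here, so no value has a replicate and no difference between lines has a test; intervals cover counting error alone, and the depth behind a silencer is unknown.

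MYC encodes a transcription factor that drives growth and division and is among the genes most often gained or overexpressed in cancer. It is controlled by enhancers scattered over a long desert with few protein-coding genes, and different tissues use different ones. The centromeric side of the desert carries inherited risk intervals for prostate, colorectal and breast cancer, PVT1 follows MYC directly on the telomeric side, and an enhancer cluster used by blood cells lies far telomeric of both. Silencers, the elements scored here, are stretches that lower transcription from a promoter they are linked to. All of them were read on plasmids, away from MYC itself, so a listed silencer is a property of the fragment in the reporter and no target gene was measured.

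MYC was placed at 127.74 Mb, a position known to the nearest 10 kb, and all distances below are taken from it; negative ones lie on the centromeric side. PVT1 lies within the first 500 kb on the telomeric side, but its exons and ends were not used here, and neither was any other human gene annotation. How poor in genes the locus is was therefore not checked, and no silencer is assigned to an exon, intron or UTR. Positions are printed as deposited.

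The locus held somewhat fewer silencers per Mb than the autosomes taken at full length, within counting error, and fewer than the rest of chromosome 8. Its density was 39.4 per Mb by the 293T list, 37.9 by the K562 list and 42.7 by the LNCap list. The exact Poisson intervals at 95% ran from 32.9 to 46.8, from 31.5 to 45.1 and from 36 to 50.4. The autosomes as a whole held 41.5, 44.7 and 45.8 per Mb. Their full length includes stretches without a listed silencer, such as centromeres, which lowers these densities. Genome-wide 7.08% of 100 kb bins held no silencer in any list. The locus thus stood at 0.95 times the autosomal density in 293T (0.794 to 1.13), 0.847 times in K562 (0.705 to 1.01) and 0.932 times in LNCap (0.785 to 1.10). Each of these intervals includes 1, that of K562 narrowly. Counted per occupied 100 kb bin, with the empty bins of the locus left out as well, the ratios were 0.970, 0.865 and 0.952. No interval was computed for these. Leaving empty bins out of the autosomes alone would lower each full-length ratio. The K562 upper limit of 1.01 would then fall below 1, so the K562 interval includes 1 only against the full length. Against the rest of chromosome 8 the locus stood at 0.853, 0.804 and 0.907 times in the same order. The K562 density outside the locus, 47.1 per Mb, lies above the locus interval, while those of 293T (46.2) and LNCap (47.1) lie inside theirs.

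The order of the lines was not resolved by the counts either. Relative to list size, 293T placed 1.06 times as many silencers here as the mean of the other lists, K562 0.904 times and LNCap 1.04 times, and the counting interval of each ratio includes 1. Cutting the autosomes and chromosome X into windows of the same 3.3 Mb gave 868 windows with at least 20 silencers. Fewer silencers than in the locus were held by 35.8% of these windows for 293T, 29.6% for K562 and 45.4% for LNCap. The ratio between lines was lower in 54.3%, 26.2% and 63.2% of the windows, in the same order, so the locus lay well within the range of the windows in all 3 lists.

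Stretches of equal length on either side were counted the same way. From 123.2 to 126.5 Mb, K562 held 53.6 silencers per Mb (46 to 62.1) and LNCap 52.7 (45.2 to 61.2), while 293T held 41.5 (34.9 to 49.1). The K562 interval lies above that of the locus. From 129.8 to 133.1 Mb the 3 lists held 36.1, 33.9 and 39.4 per Mb in the order 293T, K562 and LNCap, inside their locus intervals.

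**Figure D1:**
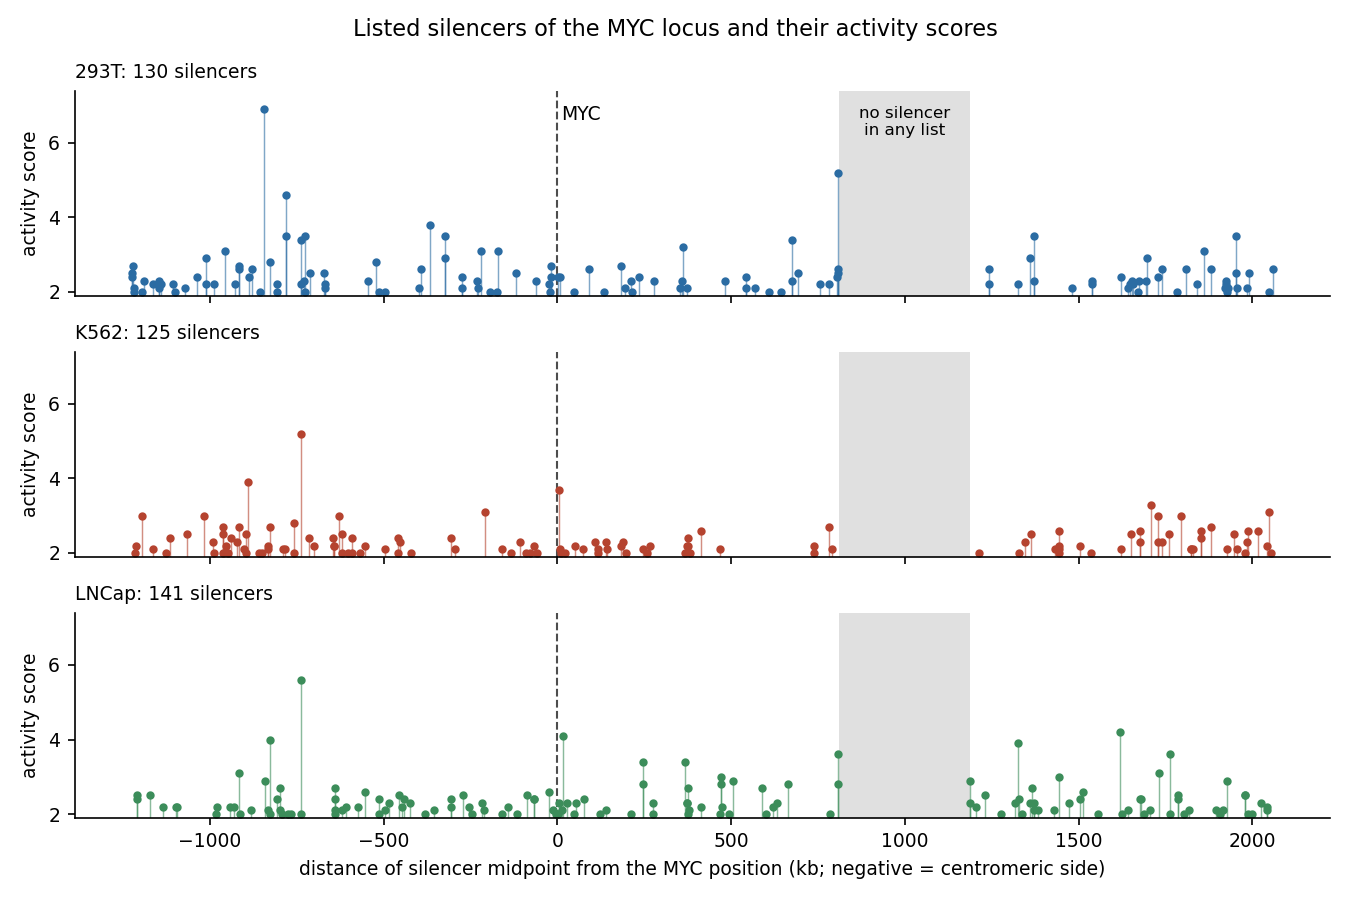
Each point is a listed silencer, placed by the distance of its midpoint from MYC in kb (dashed line) and by the authors' activity score, with a panel for each line. The highest points of K562 (5.2) and LNCap (5.6) are abutting silencers at -738 kb that do not overlap, and the grey band from 809 to 1188 kb holds no silencer in any list.

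Around MYC itself silencers were listed in all 3 lines. Within 100 kb lay 9 silencers of 293T, 10 of K562 and 15 of LNCap, which is 45, 50 and 75 per Mb. The LNCap value was 1.76 times its density over the locus, with an interval of 42 to 123.7 per Mb that still includes the locus value of 42.7. In 293T and K562 it was 1.14 and 1.32 times, also within counting error. Of the K562 silencers with a score above the list's median, 1 lay within 100 kb, which is 0.317 times their density over the locus. No interval was computed for it, and a count of 1 is too small to read as a lack.

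Closer in, the lines were arranged differently. Within 50 kb lay 7 silencers of 293T, 4 of K562 and 10 of LNCap. The LNCap density of 100.0 per Mb (48 to 184) was the only one of the 3 at this distance whose interval lay above the density of its own locus. It was 1 of several intervals looked at, over 3 lists and distances of 50, 100 and 250 kb. Within 250 kb the ratios to the locus were 1.12, 1.21 and 1.22 in 293T, K562 and LNCap, all within counting error. The 4 K562 silencers lay at 4.38 kb or more from the MYC position on the telomeric side, and the nearest at a negative distance, chr8:127680501-127680701 (score 2), lay at -59.4 kb. At negative distances 293T had 4 silencers within 50 kb and LNCap 3, the nearest at -18.7 and -4.55 kb. The side of the silencers at 4.38 and -4.55 kb is within the precision of the MYC position and so not settled.

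Silencers of all 3 lines lay within a few kb of the MYC position, as closely as it is known. The LNCap silencer chr8:127740011-127740061 (score 2) and the 293T silencer chr8:127740085-127740135 (score 2.4) did not overlap, and their midpoints were 74 bp apart. LNCap had further silencers at chr8:127735371-127735521 (score 2), chr8:127742057-127742107 (score 2) and chr8:127744301-127744351 (score 2.3). The last one abutted the K562 silencer chr8:127744351-127744401, whose score of 3.7 was the third highest of K562 in the locus. The third highest of LNCap, chr8:127756501-127756601 with a score of 4.1, lay 16.6 kb telomeric of MYC. In 293T no silencer within 100 kb scored above 2.7.

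Few silencers near MYC were shared, in numbers too small to set apart from the whole lists. Of the 34 silencers within 100 kb, 3 overlapped a silencer of another list, where 14.2% of all silencers did so. All 3 belong to 1 place at -68.3 kb, where the K562 silencer chr8:127671601-127671801 (score 2.2) spanned the LNCap silencer chr8:127671613-127671663 and met chr8:127671763-127671913 (both with a score of 2.4). None of the 9 silencers of 293T within 100 kb overlapped either list, and over the whole 293T list only 6.09% did.

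**Figure D2:**
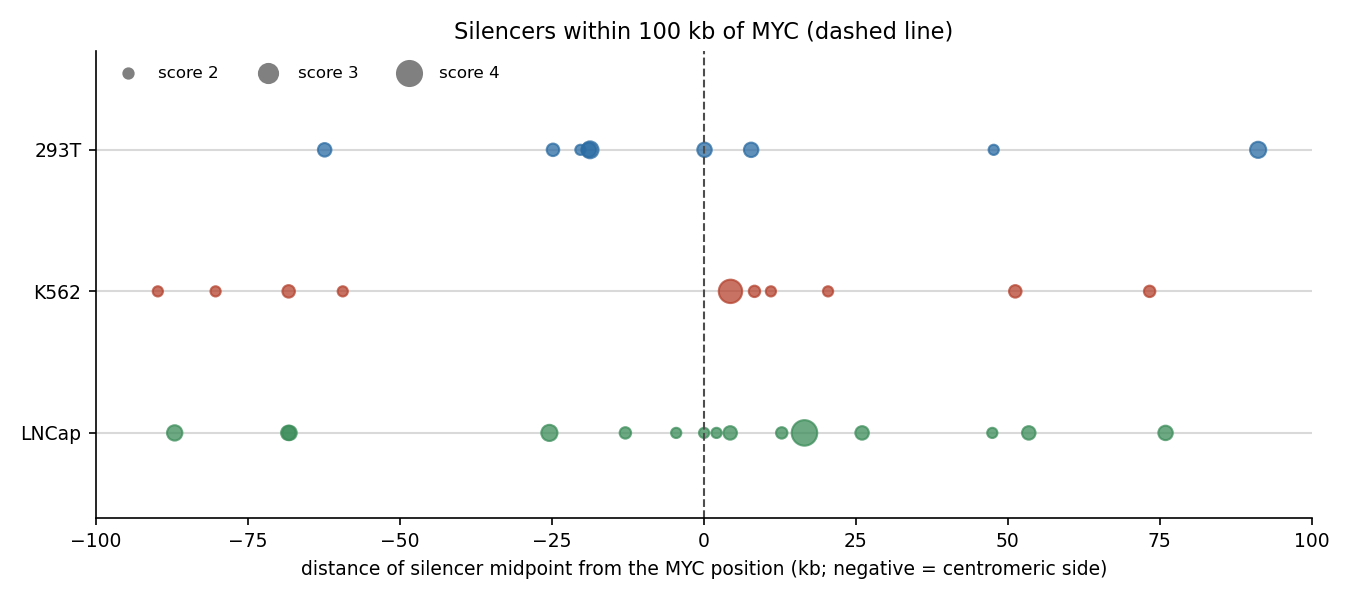
Silencers within 100 kb of MYC (dashed line), 1 row per line, placed by distance in kb, with the area of a point growing with the activity score. K562 has none between -59.4 and 4.38 kb. The largest point of LNCap lies at 16.6 kb (score 4.1) and that of K562 at 4.38 kb (score 3.7); sizes are to be compared only within a row.

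Among the full steps of 500 kb from MYC, the densest of each list lay on the centromeric side, an order not resolved by the counts. In each list its interval overlapped that of another full step, and in LNCap it held 29 silencers against 28 from 0 to 500 kb. In 293T the end pieces of 240 kb (70.8 per Mb) and 560 kb (53.6 per Mb) were denser still. From -1000 to -500 kb, K562 had 37 silencers (74 per Mb), 293T 26 (52 per Mb) and LNCap 29 (58 per Mb). The K562 value was 1.65 times its autosomal density (1.17 to 2.28), an interval above 1. In 293T the ratio was 1.25 (0.819 to 1.84) and in LNCap 1.27 (0.848 to 1.82). This is the side of the inherited cancer risk intervals, which were not located here. In the next step towards MYC, K562 had 15 silencers (30 per Mb, 16.8 to 49.5), with 20 in 293T and 24 in LNCap.

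In the outermost 240 kb on the centromeric side 293T had 17 silencers (70.8 per Mb, 41.3 to 113.4), K562 8 (33.3, 14.4 to 65.7) and LNCap 6 (25, 9.17 to 54.4). The intervals overlap. None of the 17 in 293T reached a score of 3, and 11 of them lay in the first 100 kb. No region of this step was held by more than 1 list (0 of 31 merged regions, which allows a share of up to 9.68%); genome-wide the share was 7.10%, inside that limit.

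On the PVT1 side, the first 500 kb telomeric of MYC held 16 silencers of 293T (32 per Mb, 18.3 to 52), 24 of K562 (48, 30.8 to 71.4) and 28 of LNCap (56, 37.2 to 80.9). All 3 intervals include the autosomal density of their list. Of its 62 merged regions, 4 were listed in both K562 and LNCap (6.45% shared, near the 7.10% genome-wide) and none in 293T and another line (1.99% genome-wide). The 4 lay 245, 368, 376 and 468 kb from MYC, and whether they fall inside PVT1 was not determined. At the first of them, the K562 silencer chr8:127984970-127985220 (score 2.1) covered the LNCap silencer chr8:127985001-127985151 (score 3.4). The widest silencer of LNCap in the locus, 550 bp at chr8:128117251-128117801 (score 2.1), lay 378 kb from MYC.

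Farther out on the telomeric side, from 500 to 1500 kb, each list lay below its autosomal density, though not always beyond counting error. Both steps take in part of the stretch from 809 to 1188 kb that held no silencer in any list. From 500 to 1000 kb telomeric, K562 had 4 silencers (8 per Mb, 2.18 to 20.5), 0.179 times its autosomal density, LNCap 9 (18, 8.23 to 34.2) and 293T 14 (28, 15.3 to 47). From 1000 to 1500 kb 293T had 7 (14 per Mb, 5.63 to 28.8), K562 9 (18, 8.23 to 34.2) and LNCap 17 (34, 19.8 to 54.4). The 293T interval from 500 to 1000 kb includes its autosomal 41.5 per Mb. That of LNCap from 1000 to 1500 kb includes its 45.8 per Mb, and the remaining intervals lie below. The last 560 kb, on the side of the blood enhancer cluster, held 53.6 per Mb in 293T and 50 in both other lists. These values were 1.29, 1.12 and 1.09 times the autosomal densities, within counting error.

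**Figure D3:**
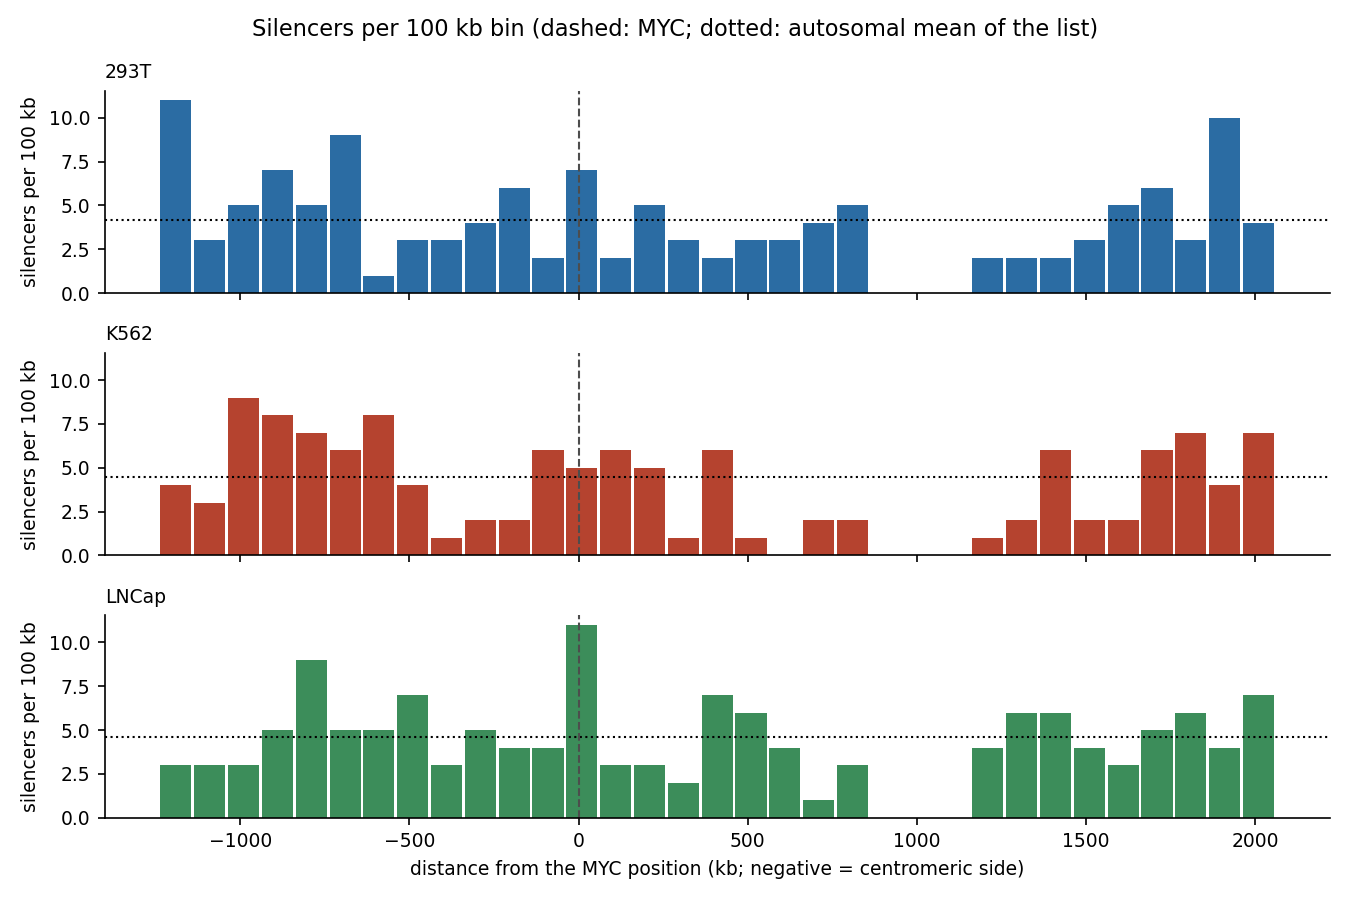
Bars give silencers per 100 kb bin along the distance from MYC in kb (dashed line), 1 panel per line, and the dotted line is the autosomal mean of the list. The 3 bins between 860 and 1160 kb are at 0 in each panel, and the bin around MYC holds 7, 5 and 11 silencers in 293T, K562 and LNCap.

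A single long stretch in this part of the desert held no silencer. None of the lists has an entry between 128548684 and 128927951, 379 kb that begin 809 kb telomeric of MYC. The free stretch measured 432 kb by the 293T list alone, 422 kb by that of K562 and 379 kb by that of LNCap. It was the longest of the locus in each; the next longest measured 123.2, 269.7 and 123.4 kb. The median gap between neighbours in the locus was 18350 bp in 293T, against 12850 bp over the list. It was 14440.5 against 11480.5 bp in K562 and 13552.5 against 11000 bp in LNCap. For the lists together it was 4482.5 against 4170 bp.

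The 3 bins of 100 kb inside the stretch were the only ones of 33 in the locus without a silencer in any list. Genome-wide 7.08% of 100 kb bins were empty in all lists, a share that includes centromeres and assembly gaps. A count of 0 over these 3 bins allows up to 10 silencers per Mb in each list; the bins were picked for being empty, so this bound describes them and tests nothing. Runs of at least 3 empty bins occurred 6 times on chromosome 8. Among all 362920 gaps between neighbours of the 3 lists together, the stretch ranked 89.

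Gaps over 300 kb numbered 120 in the genome and 9 on chromosome 8. The other 8 on chromosome 8 lay at 0.712 to 1.28 Mb, 1.39 to 2.04 Mb, 7.39 to 7.83 Mb, 7.83 to 8.19 Mb, 39.5 to 39.9 Mb and, around the centromere, at 44.6 to 44.9 Mb, 44.9 to 45.5 Mb and 45.6 to 46 Mb. The stretch telomeric of MYC was thus the only one on chromosome 8 telomeric of 46 Mb. Without reads, whether plasmids covered the stretch and reads mapped to it was not tested.

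**Figure D4:**
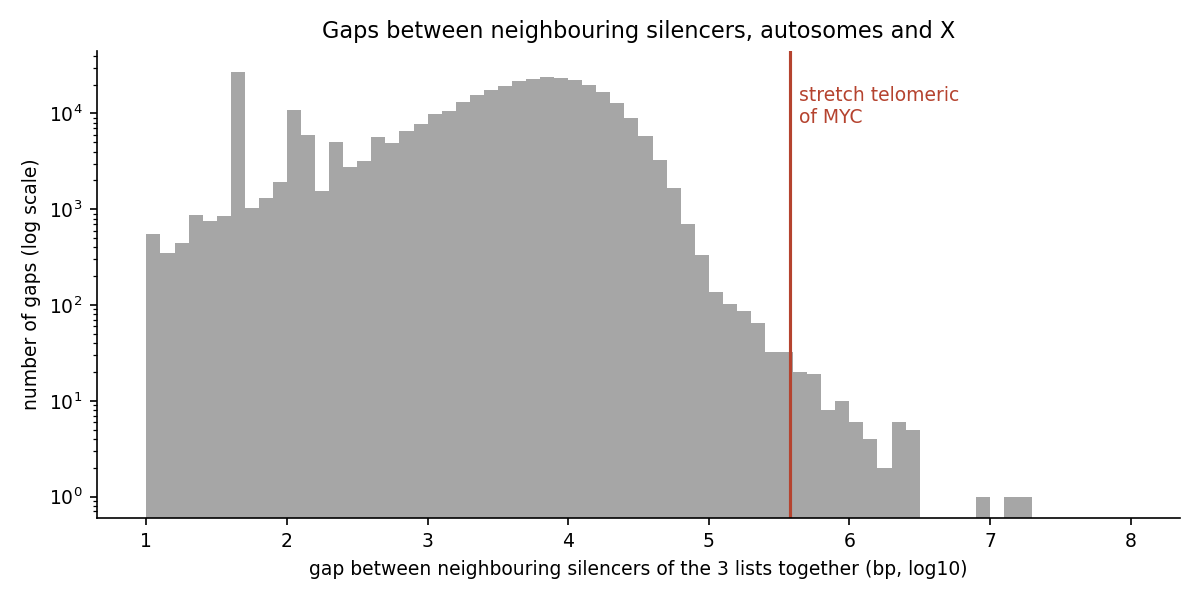
Lengths of the gaps between neighbouring silencers of the 3 lists together on the autosomes and chromosome X (log10 of bp) against their number (log scale). The line marks the 379 kb stretch telomeric of MYC, in the far right tail with 120 gaps over 300 kb.

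The stretch opens right beside silencers held by 2 lists. At 808 kb from MYC, the 293T silencer chr8:128548451-128548501 had a score of 5.2, the second highest of 293T in the locus, and overlapped the LNCap silencer chr8:128548434-128548500 (score 2.8). A further pair followed within 250 bp, chr8:128548551-128548651 in 293T (score 2.5) and chr8:128548550-128548684 in LNCap (score 3.6). K562 had no silencer in this run; its last one before the stretch ended at 128530201. At the far end the first silencer was chr8:128927951-128928301 of LNCap.

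Sharing between lines lay close to that of the whole lists. In the locus 14 K562 silencers overlapped LNCap (11.2%, Wilson interval 6.79 to 17.9), against 15.7% over the whole K562 list. Seen from LNCap, 18 silencers met one of K562 (12.8%, 8.23 to 19.3), against 15.4%. Both values lie below those of the lists but within counting error.

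Overlap with 293T was lower. Of 130 silencers of 293T, 3 overlapped K562 (2.31%, 0.788 to 6.57), against 3.30% over the list, and 5 overlapped LNCap (3.85%, 1.65 to 8.69), against 3.58%. Of the K562 silencers 3 overlapped 293T (2.40%, 0.820 to 6.82; list 3.03%), and of the LNCap silencers 5 did (3.55%, 1.52 to 8.03; list 3.23%). With 1 list per line, absence from a list does not show absence of activity in that line.

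**Figure D5:**
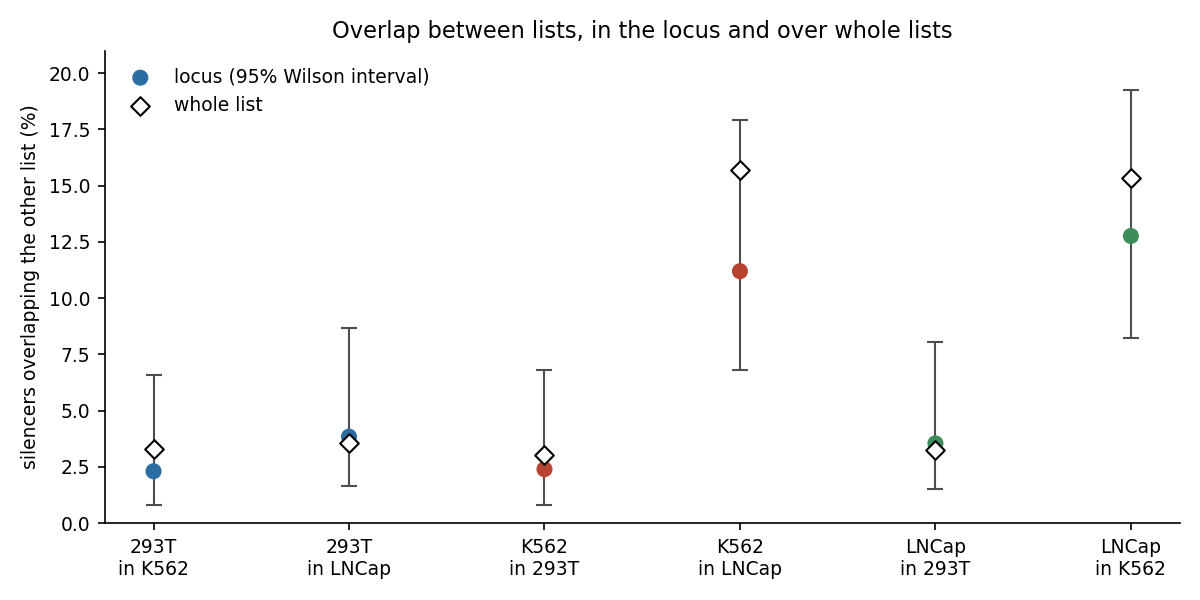
Percent of silencers of the first list that overlap the second by at least 1 bp: filled points with 95% Wilson intervals for the locus, open diamonds for the whole list. In all 6 pairs the whole-list value lies inside the interval of the locus, with K562 and LNCap at 11.2% and 12.8% and every pair with 293T under 4%.

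Merged across lists, the locus held 371 regions, of which 20 were held by more than 1 list (5.39%, Wilson interval 3.52 to 8.18, against 7.10% genome-wide). K562 and LNCap alone shared 13, 293T and LNCap 4, and 293T and K562 2. A single region was held by all 3 lists, 1 of 371 (0.270%) against 0.372% genome-wide. It lies at -918 kb, chr8:126822151-126822351, where the 293T silencer covered all 200 bp with a score of 2.7. K562 and LNCap both listed chr8:126822251-126822351, with scores of 2.7 and 3.1. Of the 20 shared regions 7 were centromeric and 13 telomeric of MYC, where the telomeric side is longer and held more merged regions. In each step of distance the Wilson interval of the shared percent includes the genome-wide 7.10%, so the counts set neither side apart.

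The highest scores of K562 and LNCap in the locus met at 1 place without overlapping. The K562 silencer chr8:127002351-127002401 scored 5.2 and the LNCap silencer chr8:127002401-127002451 scored 5.6; they abut, so the overlap rule of 1 bp does not count them. A 293T silencer with a score of 3.4, chr8:127002543-127002593, lay in the same run of 242 bp at -738 kb. The 3 silencers have no shared base. Whether the end position belongs to a silencer is not stated, and here it was taken as outside. If it belonged, the abutting pair would share 1 position. Abutting pairs were rare: 3 K562 silencers of the locus abutted LNCap without overlapping it, and 1.87% of the K562 list did so.

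The highest-scoring silencer of 293T in the locus was listed by no other line. It is chr8:126894111-126894161, with a score of 6.9 at -846 kb, and the nearest silencer of another line, of LNCap, was 3925 bp away. The third highest of 293T, chr8:126958550-126958601 (score 4.6), likewise overlapped no other list. In K562 the second highest was chr8:126850151-126850201 (score 3.9), 900 bp from a 293T silencer. In LNCap it was chr8:129359705-129359755 (score 4.2), 1620 kb telomeric of MYC. No silencer of the locus had an infinite score.

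Apart from these, scores were close to the lowest value listed, 2. The median was 2.3 in 293T and 2.2 in K562 and LNCap, equal to the medians of the whole lists. Scores of 3 or more were held by 16 silencers of 293T (12.3%, against 14.2% of the list), 11 of K562 (8.80%, against 9.85%) and 13 of LNCap (9.22%, against 11.6%). In 293T 10 of the 16 lay centromeric of MYC, in K562 6 of the 11 and in LNCap 3 of the 13. That side held 63, 60 and 59 silencers of these lists. The scale of the score is not stated, so scores are ranked only within a list.

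Silencers of the locus were as narrow as elsewhere. Most measured exactly 50 bp: 68.5% for 293T, 64.8% for K562 and 59.6% for LNCap, against 64.5%, 58.7% and 60.6% over the lists. Widths over 300 bp occurred in 2 silencers of K562, 4 of LNCap and none of 293T. These are 1.6%, 2.84% and 0% of the silencers, against 2.32%, 2.28% and 1.39% of the whole lists. The widest of K562, 500 bp at chr8:129719451-129719951 (score 2), lay 1980 kb telomeric of MYC and overlapped LNCap silencers. The widest of 293T, 287 bp at chr8:126544319-126544606 (score 2), overlapped none.

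Neighbouring silencers of a list formed short runs. Joined within 500 bp, 31.5% of 293T silencers lay in a run of at least 2 (Wilson interval 24.2 to 39.96, list 26.1%), 24.8% of K562 (18.1 to 33, list 24.99%) and 26.2% of LNCap (19.7 to 34.1, list 26.9%). The fullest run over all lists, at chr8:129183901-129184451 and 1444 kb telomeric of MYC, held 4 silencers of K562 and 1 of LNCap. Another 5 runs held 4 silencers each. They include chr8:126822001-126822351, which contains the region held by all 3 lists, and chr8:126913551-126913801, with 1 silencer of 293T, 1 of K562 and 2 of LNCap and a highest score of 4.

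By 100 kb bins, the fullest after scaling the lists to equal size was the bin of MYC, from 127.7 to 127.8 Mb, which held 7, 5 and 11 silencers of 293T, K562 and LNCap. Next came the bin from -840 to -740 kb with 5, 7 and 9 and that from -740 to -640 kb with 9, 6 and 5. The autosomal mean corresponds to about 4 silencers per bin and list, so that counting error is large in any 1 bin. Over all 33 bins the Spearman correlation was 0.53 between K562 and LNCap, 0.33 between 293T and K562 and 0.18 between 293T and LNCap. Without the 3 bins that are empty in all lists it was 0.38, 0.11 and -0.09, where the 28156 bins of the genome with a silencer gave 0.52, 0.32 and 0.31. These are descriptions of bins that share position, base composition and the mapping of reads.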

How the data were processed

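The authors deposited 1 silencer list per line with chromosome, start, end and an activity score, per the file headers; the score's scale, the caller and the pooling of libraries are not stated in any source at hand. Bowtie2, SAMtools and hg38 are named, without versions, in the submitters' processing notes. All libraries are labelled as mouse, but lines and build are human.

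Broken lines, reversed positions and widths over 5000 bp were dropped (58, 12 and 25 lines in 293T, K562 and LNCap). Overlap meant at least 1 shared bp, with the end position taken as not part of a silencer. Autosome lengths were the highest end listed. Intervals are exact Poisson for densities and Wilson for shares, at 95%. Silencers were named by rule: the 3 highest scores, the widest and the 3 nearest to MYC on each side per list, regions held by all lists, and the fullest runs and bins; others were chosen after their values were seen. Members and rules were chosen with earlier results of these data known. No tests between lines were possible. The counting functions were tested on simulated data. The reference tables at hand were of mouse, so no human gene or sequence was drawn from them. Alternatives covered score, merging, start offset, overlap rule and distance. The work used scipy 1.17.1, pandas 2.3.3 and numpy 2.4.6 under Python 3.11.15, with figures by matplotlib 3.10.9.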

Additional observations from a re-analysis of the deposited data

How the results depend on the processing

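No paired analysis was possible because each line has a single list, and no replicate could be left out. Of 78 alternatives for 21 results, 64 kept the value within the counting interval of the main setting and 14 did not. Midpoints within 500 bp and a set width of 300 bp are wider overlap rules. They raised the shared percent of the whole lists too, given in parentheses below. For the other changes the cause was not tested. Using only silencers that start at 0 or 1 modulo 50 moved the share ratio of 293T to 1.29 and that of LNCap to 0.782, and the LNCap density to 0.731 times that of the autosomes. With midpoints within 500 bp, the percent shared was 6.92 for 293T in K562 (whole list 10.0), 11.5 for 293T in LNCap (10.6), 7.2 for K562 in 293T (9.21), 21.6 for K562 in LNCap (27.2), 9.93 for LNCap in 293T (9.65) and 19.9 for LNCap in K562 (26.97). With silencers set to 300 bp it was 11.5 for 293T in LNCap (8.25), 20 for K562 in LNCap (25.1) and 9.93 for LNCap in 293T (7.50). Above the median score in both lists, LNCap in K562 was 7.35 (12.2). K562 silencers above the median score within 100 kb of MYC numbered 1, which is 0.317 times their density over the locus, a count too small to read as a lack. Counted per occupied 100 kb bin, the locus stood at 0.970, 0.865 and 0.952 times the autosomes in 293T, K562 and LNCap, with the empty bins of the locus left out as well. This measure and the one that counts abutting silencers as shared were chosen after seeing the data. Few counts per step limit what could be seen: steps of 500 kb held 4 to 37 silencers per list.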

Other observations

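Silencers of LNCap in the locus started off the 50 bp grid of the lists more often than in the LNCap list as a whole: 89 silencers (63.1%, Wilson interval 54.9 to 70.6) had a start at neither 0 nor 1 modulo 50, against 52.97% of the list. In K562 the share was 50.4% against 50.3%, and in 293T 36.9% (29.1 to 45.5) against 41.7%. The median distance from a 293T silencer of the locus to the nearest K562 silencer was 9.43 kb against 6.90 kb over the list, and to the nearest LNCap silencer 8.40 kb against 6.80 kb. From K562 it was 8.835 against 7.245 kb to 293T and 4.419 against 4.106 kb to LNCap. From LNCap to K562 it was 4.6285 against 4.175 kb. Only from LNCap to 293T was it shorter in the locus, 6.93 kb against 7.24 kb.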
